A study of Mus musculus with 12 samples.

Results

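The complement activation components described here are 10 genes: C1qa, C1qb, C1qc, C1ra, C1s1, C2, C3, C4b, Cfb and C3ar1. They were chosen by name, as the genes that start and amplify the complement cascade together with the receptor of a C3 fragment. The choice was made with earlier results of these data known. They are 10 of the 56748 genes in the count table. Of the 10, 9 were among the 18334 genes with enough counts to be tested, and Cfb was not. The retinas came from JR5558 mice, an inbred line in which vessels grow beneath the retina without treatment and which is known to be homozygous for rd8 in Crb1 and for a Jak3 mutation, and from C57BL/6J mice, the usual reference strain, of the same ages. There were 4 groups of 3 mice, with no treatment named in the labels: C57BL/6J at 4 weeks, JR5558 at 4 weeks, C57BL/6J at 8 weeks and JR5558 at 8 weeks. Libraries were made from poly-A RNA of the retina, and the labels give no sex. The 3 samples of a group are taken as 3 mice; the labels do not say whether retinas were pooled, and for samples that are not separate mice the p-values measure only the spread between samples.

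Complement is a set of plasma and tissue proteins that mark cells and debris for removal. In the classical pathway C1q, a hexamer built from the A, B and C chains, binds a surface and activates the proteases C1r and C1s. These cleave C4 and C2 into the convertase that splits C3, the protein on which every activation route meets. Factor B, encoded by Cfb, forms the alternative convertase that amplifies C3 cleavage, and C3ar1 is the receptor of the small fragment C3a. In the retina C1q is mainly a product of microglia, and complement has long been studied there in synapse removal and in macular degeneration.

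The libraries held 18029611 to 23739886 counts. The 3 JR5558 libraries at 4 weeks held 0 to 5 counts of Xist, made from the inactive X chromosome, and 1323 to 1846 of the Y-linked Ddx3y, while the other 9 held 7772 to 22988 of Xist and 0 of Ddx3y. Sex and strain at 4 weeks, and sex and age within JR5558, therefore cannot be told apart. The same holds for sex and any change of the strain effect between the ages. JR5558 retinas also carried more RNA of the pigment epithelium, the layer beneath the retina: the summed CPM of 15 of its markers was 149 to 288 in the C57BL/6J libraries and 367 to 526 in the JR5558 libraries, and 12 of the 15 were called higher at 4 weeks and 3 at 8 weeks. CPM are counts scaled to the TMM-adjusted library size. The error after ± is a standard error for a log2 fold change, and for any other quantity (a level, share, ratio or difference of mean log2 levels) the SD over the n = 3 mice of a group.

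At 4 weeks, 6 of the 9 tested genes were called higher in JR5558 by edgeR's quasi-likelihood test (adjusted p under 0.05): C1qa, C1qb, C1qc, C1ra, C3 and C4b. Of all tested genes 3.27% were called higher and 2.9% lower, and 0 of the 9 were lower, with 1 of them, C1s1, lower at an unadjusted p under 0.05. DESeq2 gave the same counts, 6 and 0, while an edgeR fit of the compared groups alone called only C4b, C3 and C1qc. In the authors' deposited table C1qa, C1qb and C1ra were not below 0.05 at this age either. The median log2 fold change of the 9 was 0.82, against -0.00116 over the 18334 genes tested. Because the genes were chosen with earlier results known, the shares of all genes here are a description and no test of the set. At 8 weeks, 4 of the 9 were called higher, C1qa, C1qb, C1qc and C4b, against 2.54% of all tested genes higher and 2.63% lower, with a median of 0.65, and 0 were lower by edgeR, at an unadjusted p under 0.05 or by DESeq2. The 3 JR5558 retinas lay above the 3 C57BL/6J retinas for 6 of the 9 genes at 4 weeks, where 10.1% of tested genes were separated in this way, and for 6 of the 9 at 8 weeks, where 14.9% were. The same 6 genes were separated at both ages, among them C1ra and C3, which were not called at 8 weeks. The share of all tested genes separated upward at both ages is not given here, so this overlap has no background beside it. In whole tissue, a change in the number of cells of a type cannot be told apart from a change in RNA per cell.

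**Figure D1:**
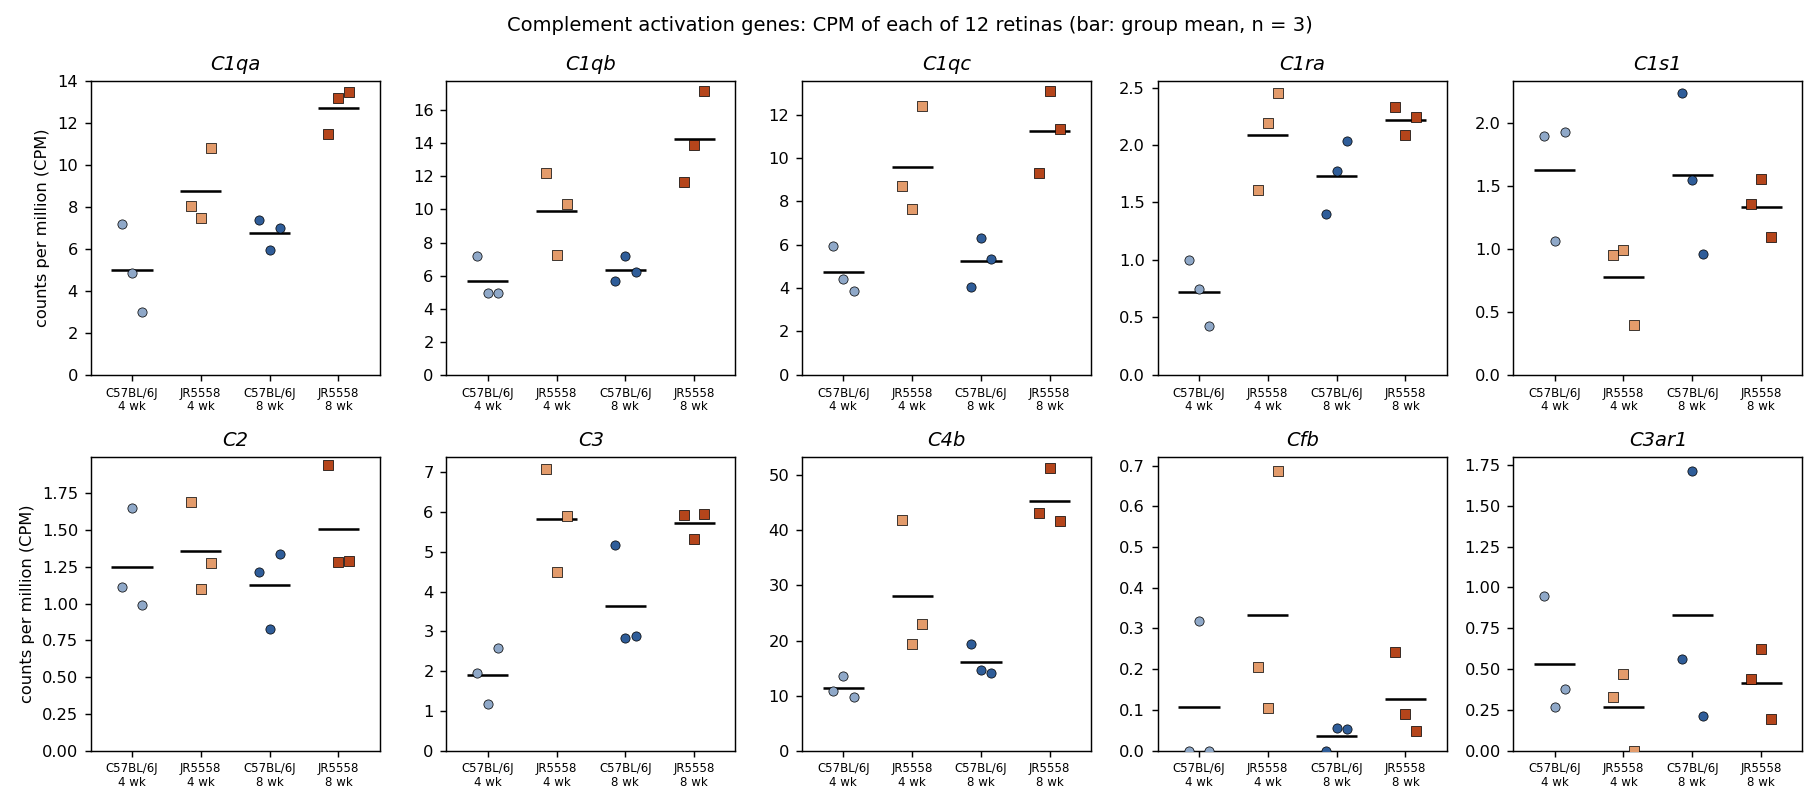
Depth-scaled counts (CPM, y axis, linear from 0 and scaled to each gene) of the 10 genes in each of the 12 retinas, by strain and age on the x axis. Each point is 1 mouse and each bar is the mean of 3. C4b reached 41.7 to 51.3 CPM in JR5558 at 8 weeks against 14.2 to 19.4 in C57BL/6J, while C2 overlapped between strains at both ages.

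The 3 C1q chain genes lie side by side on chromosome 4 on the same strand: C1qb (ENSMUSG00000036905) at chr4:136880129-136886187, C1qc (ENSMUSG00000036896) at chr4:136889804-136893065 and C1qa (ENSMUSG00000036887) at chr4:136895917-136898803 in GRCm38, with 3616 and 2851 bases between them. Because each of the 3 chains was called at both ages, the 250 bases before the RefSeq start of C1qb and C1qc are shown, in GRCm38.p6 (chr4:136886201-136886450 and chr4:136892915-136893164, both minus strand). Promoter entries matched 6 of the 10 genes. The capitals mark matches, on either strand, to GAGGAA, the core bound by the myeloid factor PU.1, and in C1qc also to the NF-kB motif.

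C1qb: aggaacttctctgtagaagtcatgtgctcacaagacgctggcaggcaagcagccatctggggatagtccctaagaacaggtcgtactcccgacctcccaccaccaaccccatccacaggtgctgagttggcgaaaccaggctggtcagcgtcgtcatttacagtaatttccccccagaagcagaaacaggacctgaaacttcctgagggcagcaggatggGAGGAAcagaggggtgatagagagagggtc
C1qc: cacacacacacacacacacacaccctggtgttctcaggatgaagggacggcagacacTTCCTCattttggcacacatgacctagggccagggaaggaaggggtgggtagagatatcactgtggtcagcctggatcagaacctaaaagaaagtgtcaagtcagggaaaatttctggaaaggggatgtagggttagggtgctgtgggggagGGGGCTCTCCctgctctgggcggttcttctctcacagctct

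The GAGGAA match began 30 bases before the start in C1qb and 193 bases before it, on the opposite strand, in C1qc, and the NF-kB match of C1qc began 41 bases before the start, as RefSeq places these starts. The 2 annotations place the start of C1qc 151 bases apart: by the GENCODE M21 gene model given above, 151 of the 250 bases lie inside C1qc, the NF-kB match begins 110 bases after the start and the GAGGAA match 42 bases before it. The motifs do not share bases in these windows. Of 32851 promoter windows of the same length, 23.253% held GAGGAA and 7.251% the NF-kB motif. Such a match is a description of letters and was not measured as binding.

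C1qa had 129, 91 and 64 counts in the 3 C57BL/6J retinas at 4 weeks and 195, 143 and 220 in the 3 JR5558 retinas. At 8 weeks the counts were 158, 108 and 131 against 236, 298 and 283. The strains did not overlap at either age after scaling to depth, but the closest pair at 4 weeks lay near each other, at 7.19 CPM for C57BL/6J against 7.48 for JR5558. The log2 fold change was 0.82 ± 0.23 at 4 weeks (adjusted p = 0.0426) and 0.90 ± 0.22 at 8 weeks (adjusted p = 0.0212). Means were 5.01 ± 2.09 and 8.77 ± 1.78 CPM at 4 weeks and 6.78 ± 0.727 and 12.7 ± 1.10 CPM at 8 weeks.

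C1qb had 129, 93 and 105 counts in C57BL/6J at 4 weeks against 296, 139 and 210 in JR5558, and 122, 130 and 116 against 240, 313 and 360 at 8 weeks. The JR5558 retinas were above every C57BL/6J retina at each age, with the widest gap at 8 weeks. C1qb rose by 0.81 ± 0.21 on the log2 scale at 4 weeks (adjusted p = 0.0235) and by 1.16 ± 0.21 at 8 weeks (adjusted p = 0.00137). C1qc had 107, 83 and 82 counts against 211, 146 and 252 at 4 weeks, and 87, 114 and 100 against 192, 295 and 238 at 8 weeks. It rose by 1.02 ± 0.22 (adjusted p = 0.00789) and by 1.11 ± 0.22 (adjusted p = 0.00383), about 2.02-fold and 2.16-fold. In CPM, C1qc stood at 4.74 ± 1.09 and 9.57 ± 2.49 at 4 weeks, and at 5.24 ± 1.13 and 11.3 ± 1.88 at 8 weeks.

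C1qc kept its call at both ages in each of the 12 fits that left out 1 library, and C1qb did so at 8 weeks. C1qa at 4 weeks lost its call in 10 of the 12 such fits (log2 fold change 0.55 to 1.17, adjusted p up to 0.161), and at 8 weeks in 5, those without any C57BL/6J 8-week replicate or without JR5558 8-week replicate 2 or 3 (adjusted p up to 0.104). C1qb at 4 weeks lost its call in 4 of the 12, without C57BL/6J 4-week replicate 2 or 3 or JR5558 4-week replicate 1 or 3 (adjusted p up to 0.118). Without C57BL/6J 4-week replicate 3, 3 of the 9 genes were called at 4 weeks, C1qc, C3 and C4b. That library also held the most RNA of the lens gene Cryaa, 62.6 CPM, against 4.68 and 2.82 in the other C57BL/6J retinas at 4 weeks, 0 to 14.1 in JR5558 at 4 weeks and 1.68 to 25.3 at 8 weeks. The summed CPM of 12 lens genes was 8.39 to 143 in C57BL/6J and 1.67 to 37.4 in JR5558 at 4 weeks, and 7.10 to 46.5 and 9.05 to 65.1 at 8 weeks. Of the 10 lens genes tested 0 were called between strains by edgeR, with 1 lower at an unadjusted p under 0.05 at 4 weeks and 0 at 8 weeks, and the median log2 fold change was -1.46 at 4 weeks and 0.22 at 8 weeks. The contribution of lens RNA to the complement values was not tested.

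The proportions of the 3 chains were also read per length. C1qa made up 37.6%, 37.6%, 43.4% and 39.5% of the summed FPKM of the chains in C57BL/6J at 4 weeks, JR5558 at 4 weeks, C57BL/6J at 8 weeks and JR5558 at 8 weeks. C1qb made up 42.5%, 40.5%, 38.7% and 41.8%, and C1qc 19.9%, 21.9%, 17.9% and 18.7%. The SD within a group was 1.29 to 6.42 percentage points, and these shares were not tested between groups.

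**Figure D2:**
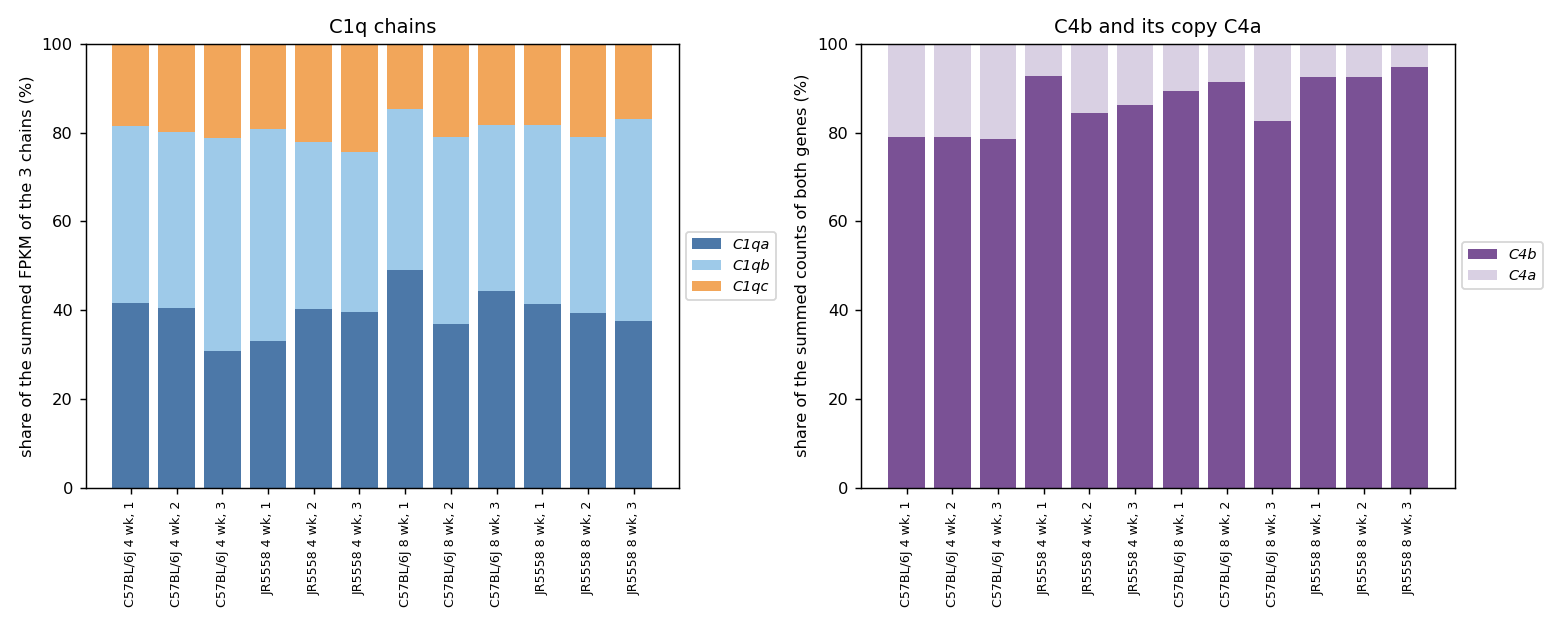
Left, the share of C1qa, C1qb and C1qc in their summed FPKM (%) in each of the 12 retinas on the x axis; right, the share of C4b in the summed counts of C4b and its near-identical copy C4a (%). The shares of C1qc ran from 14.6% to 24.4%, and C4b held 78.6% to 79.1% in C57BL/6J at 4 weeks and 92.6% to 94.8% in JR5558 at 8 weeks.

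Markers of microglia, the cells that make most retinal C1q, were read beside these values. The mean log2 CPM of 14 homeostatic microglia markers was 1.47 to 1.51 in C57BL/6J and 1.76 to 1.97 in JR5558 at 4 weeks, and 1.11 to 1.31 and 1.82 to 2.25 at 8 weeks. Of the 14, 2 were called higher at 4 weeks, among them Olfml3 (0.91 ± 0.13, adjusted p = 0.000218). At 8 weeks 3 were, the growth factor receptor Csf1r (0.67 ± 0.13), the signalling adaptor Tyrobp (1.62 ± 0.32) and Olfml3 (0.56 ± 0.13). Tmem119 gave -0.52 ± 0.32 and 0.74 ± 0.31, P2ry12 0.18 ± 0.29 and 0.68 ± 0.30, and the fractalkine receptor Cx3cr1 0.40 ± 0.20 and 0.23 ± 0.20 at 4 and 8 weeks, and these 6 values were not called (adjusted p of 0.206 or more). The mean log2 CPM of the 3 C1q chains minus that of the markers was 0.85 ± 0.39, 1.37 ± 0.27, 1.4 ± 0.18 and 1.63 ± 0.10 in C57BL/6J and JR5558 at 4 weeks and C57BL/6J and JR5558 at 8 weeks.

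With the microglia marker mean as a covariate in the fit, C1qc stood at 0.96 ± 0.35 at 4 weeks and 0.98 ± 0.64 at 8 weeks, and C1qb at 0.35 ± 0.29 and 0.11 ± 0.52. In this fit C1qa stood at 0.64 ± 0.35 and 0.49 ± 0.64, C4b at 0.99 ± 0.34 and 0.82 ± 0.59, C3 at 1.34 ± 0.44 and 0.065 ± 0.76, and C1ra at 1.66 ± 0.53 and 0.66 ± 0.95. Standard errors of the 9 genes were 1.38 to 3.16 times those without the covariate, and 0 of the 9 were called in that fit at either age. The marker mean did not overlap between strains at either age, so that fit can hardly separate strain from the covariate. Over all 18334 tested genes that fit called 248 at 4 weeks and 41 at 8 weeks, against 1130 and 949 without the covariate. The 0 of 9 therefore does not set these genes apart. Of 20 markers of activated microglia and macrophages, 15 were tested: 4 were higher and 1 lower at 4 weeks, with galectin-3 (Lgals3, 2.12 ± 0.25), the class II invariant chain Cd74 (1.85 ± 0.34) and the protease Ctsd (0.38 ± 0.08) among the higher. The 1 lower was Lpl (-0.63 ± 0.13). At 8 weeks 4 were higher and 2 lower, the lower ones Lpl (-0.49 ± 0.13) and Spp1 (-0.52 ± 0.13). Lgals3 and Ctsd were at 2.19 ± 0.23 and 0.27 ± 0.08 at 8 weeks, while Cd74, at 0.86 ± 0.31, was not called (adjusted p = 0.140 by edgeR). Levels in this list differed widely, with group means of 1.32 to 8.35 CPM for Lgals3 and 194 to 279 CPM for Ctsd. The cells that made these RNAs were not measured, so this list is not a readout of microglia alone. Markers of lymphocytes and granulocytes were at or near 0, with summed CPM of 0.34 to 2.06 over 8 genes, and Cd3e of T cells had 0 counts in the 12 libraries. The contribution of microglia number to the C1q values was not tested.

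**Figure D3:**
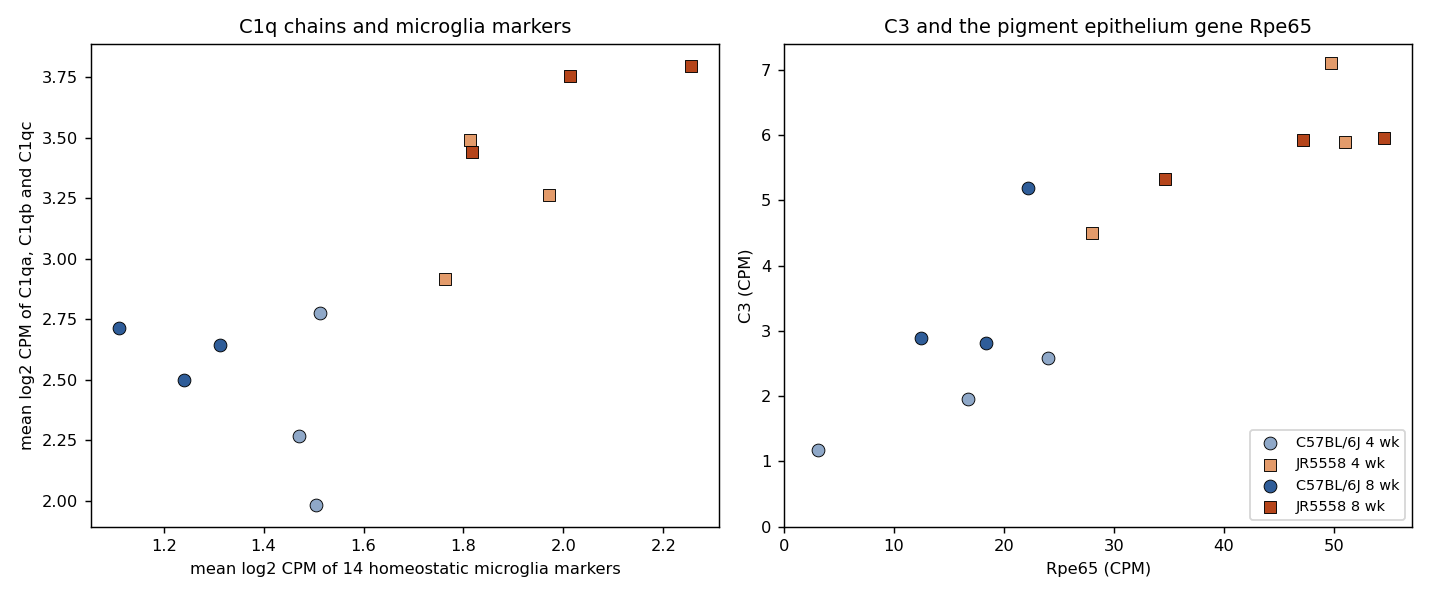
Left, the mean log2 CPM of C1qa, C1qb and C1qc against the mean log2 CPM of 14 homeostatic microglia markers; right, C3 against the pigment epithelium gene Rpe65, both in CPM from 0. Each point is 1 of the 12 retinas, coloured by group. Within each age the 3 JR5558 retinas lie above and to the right of the 3 C57BL/6J retinas in both panels, with the marker means at 1.76 to 2.25 and Rpe65 at 28 to 54.6 CPM.

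C1r and C1s are the proteases of the C1 complex. At 4 weeks C1ra rose and C1s1 gave a value of the opposite sign that was not called, and the difference between the genes was not tested. C1ra (ENSMUSG00000055172, chr6:124512405-124523443, GRCm38, plus strand) and C1s1 (ENSMUSG00000038521, chr6:124530345-124542359, minus strand) lie 6901 bases apart. C1ra had 18, 14 and 9 counts in C57BL/6J at 4 weeks, 39, 42 and 50 in JR5558 at 4 weeks, 30, 32 and 38 in C57BL/6J at 8 weeks and 48, 47 and 47 in JR5558 at 8 weeks. The C57BL/6J retinas at 4 weeks stood below the other 9. C1ra rose by 1.53 ± 0.36 at 4 weeks (adjusted p = 0.0129), a call that ended without C57BL/6J 4-week replicate 3 (adjusted p = 0.0589). At 8 weeks the difference was 0.36 ± 0.33 (adjusted p = 0.645), although the strains did not overlap. The difference of these 2 strain effects was -1.17 ± 0.49 (adjusted p = 0.618 by edgeR) and was not called.

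C1s1 had 34, 20 and 41 counts in C57BL/6J at 4 weeks against 23, 19 and 8 in JR5558, and 48, 28 and 18 against 28, 35 and 23 at 8 weeks. The JR5558 retinas lay below the C57BL/6J retinas at 4 weeks, a separation that 9.55% of tested genes showed in that direction, and the groups overlapped at 8 weeks. The log2 fold change was -1.06 ± 0.44 at 4 weeks (adjusted p = 0.183) and -0.25 ± 0.42 at 8 weeks (adjusted p = 0.827), neither called. The ratio of C1ra to C1s1 in FPKM was 0.507 ± 0.256 in C57BL/6J and 3.55 ± 2.62 in JR5558 at 4 weeks, and 1.36 ± 0.792 and 1.78 ± 0.368 at 8 weeks. At counts of 8 to 50 per library, these ratios carry a large counting error.

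Both proteases have near-identical copies, and reads that fit both could be split or lost in the authors' counting. C1rb, 98.0% identical to C1ra over the aligned bases, had 0 or 1 count in each library, and 34.5% of the 100-base windows of the C1ra transcript also occur in it. C1s2, 96.0% identical to C1s1, had 0 to 12 counts, and 7.90% of the C1s1 windows occur in it. C1s1 also shares 18.4% of its exonic bases with the antisense gene Gm16567, which had 0 counts in the 12 libraries.

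C4b (ENSMUSG00000073418, chr17:34728380-34743882, GRCm38, minus strand) encodes complement C4, whose larger fragment binds covalently to surfaces and holds the convertase there. It had the lowest adjusted p of the 9 tested genes at both ages. At 4 weeks C4b had 193, 254 and 206 counts in C57BL/6J and 1017, 369 and 468 in JR5558. At 8 weeks the counts were 416, 265 and 265 against 887, 1157 and 875. The strains did not overlap, and JR5558 4-week replicate 1 stood well above its group, at 42.0 CPM against 19.3 and 23.0. C4b rose by 1.32 ± 0.22 at 4 weeks (adjusted p = 0.000806) and by 1.49 ± 0.22 at 8 weeks (adjusted p = 0.000169), about 2.50-fold and 2.81-fold. Both calls were kept in each of the 12 fits that left out 1 library, with 4-week values of 0.90 to 1.53.

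C4b has a copy, C4a, whose transcript is 96.1% identical, and 16.5% of the 100-base windows of the C4b transcript occur in C4a too. A stretch of 60 bases where the copies differ at 13 positions is shown, since the separation of their counts rests on such places. It lies at bases 2761 to 2820 of the C4b transcript and 2755 to 2814 of the C4a transcript (GENCODE M21), and the capitals mark the bases that differ.

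C4b: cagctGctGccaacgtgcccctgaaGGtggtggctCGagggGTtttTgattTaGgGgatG
C4a: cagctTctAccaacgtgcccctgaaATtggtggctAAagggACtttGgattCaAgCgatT

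C4a was low and was not called. It had 51 to 67 counts in C57BL/6J and 68 to 79 in JR5558 at 4 weeks, and 25 to 56 and 48 to 93 at 8 weeks. Its log2 fold change was 0.22 ± 0.28 (adjusted p = 0.746) and 0.56 ± 0.29 (adjusted p = 0.334). C4b took 79.0% ± 0.282 of the counts of both genes in C57BL/6J at 4 weeks, 87.8% ± 4.41 in JR5558 at 4 weeks, 87.8% ± 4.64 in C57BL/6J at 8 weeks and 93.3% ± 1.28 in JR5558 at 8 weeks. How reads that fit both copies were assigned is not given in the sources used here.

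C2, the protease part of the classical convertase, showed no called difference. It had 20, 31 and 21 counts in C57BL/6J and 41, 21 and 26 in JR5558 at 4 weeks, and 26, 15 and 25 against 40, 29 and 27 at 8 weeks. The groups overlapped at both ages, with log2 fold changes of 0.13 ± 0.37 (adjusted p = 0.898) and 0.41 ± 0.38 (adjusted p = 0.644). C2 (ENSMUSG00000024371, chr17:34862604-34898265, minus strand) and Cfb (ENSMUSG00000090231, chr17:34856374-34862518, minus strand) are 85 bases apart in GRCm38. A readthrough gene model, Gm20547, covers 42.8% of the exonic bases of C2 and 79.5% of those of Cfb on the same strand and had 0 counts in the 12 libraries. How reads in the shared exons were counted is not given in the sources used here, so the levels of both genes are uncertain. C2 also shares 4.2% of its exonic bases with Zbtb12 on the other strand, which had 129 to 322 counts, and whether the libraries keep strand is not settled by the labels.

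C3 (ENSMUSG00000024164, chr17:57203970-57228136, GRCm38, minus strand) is the central protein of the cascade. At 4 weeks it had 35, 22 and 55 counts in C57BL/6J and 172, 86 and 120 in JR5558. At 8 weeks it had 111, 51 and 54 against 122, 120 and 125. The strains did not overlap at either age in CPM, but C57BL/6J 8-week replicate 1, at 5.18 CPM, lay close to the lowest JR5558 retina at 5.32 CPM. C3 rose by 1.61 ± 0.29 at 4 weeks (adjusted p = 0.00160), about 3.05-fold, and this call was kept in each of the 12 fits that left out 1 library. At 8 weeks the difference was 0.65 ± 0.27 (adjusted p = 0.215), not called. Without 1 library the 8-week value ran from 0.50 to 1.01, the highest without C57BL/6J 8-week replicate 1 (adjusted p = 0.0713). The difference between these effects was -0.96 ± 0.40 (adjusted p = 0.619 by edgeR), so a smaller effect at 8 weeks was not shown.

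Pigment epithelium RNA was read beside C3. Rpe65, the isomerase of the visual cycle and a defining pigment epithelium gene, was at 16.7, 3.13 and 24 CPM in C57BL/6J and 49.7, 28 and 51.0 in JR5558 at 4 weeks, and at 22.2, 18.4 and 12.5 against 47.2, 34.6 and 54.6 at 8 weeks. The lowest C3 value, 1.17 CPM, was in the library with the lowest Rpe65. C57BL/6J 4-week replicate 3 had the highest Rpe65 of its strain, 24 CPM, with C3 at 2.59 CPM. C57BL/6J 8-week replicate 1, at 22.2 CPM of Rpe65, had C3 at 5.18 CPM. With the average of the 15 pigment epithelium markers (log2 CPM) as a covariate, C3 stood at 0.38 ± 0.45 at 4 weeks and -0.36 ± 0.38 at 8 weeks. In the same fit C4b stood at 1.26 ± 0.46 (adjusted p = 0.270) and 1.45 ± 0.36 (adjusted p = 0.0620), C1qc at 1.02 ± 0.45 and 1.11 ± 0.38, C1qa at 0.91 ± 0.47 and 0.98 ± 0.40, C1ra at 2.12 ± 0.70 and 0.85 ± 0.60, and C1qb at 0.26 ± 0.39 and 0.71 ± 0.34. Of the 9 genes 0 were called in that fit at either age, and their standard errors were 1.4 to 2.05 times those without the covariate. The marker average was 1.97 to 2.90 in C57BL/6J and 3.44 to 3.93 in JR5558 libraries. As these ranges do not overlap, that fit can hardly separate strain from the covariate. Over all 18334 tested genes that fit called 188 at 4 weeks and 240 at 8 weeks, against 1130 and 949 without the covariate. With calls that rare, 0 of 9 does not set these genes apart from the others. Whether C3 RNA came from the pigment epithelium was not tested.

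The 250 bases before the start of C3 (RefSeq, GRCm38.p6, chr17:57228137-57228386, minus strand) are shown because C3 had the largest called strain difference of the 9 genes at 4 weeks and because Cebpd, a C/EBP factor of the acute-phase response, rose at both ages. The capitals mark a match to the C/EBP letters TTGCNNAA, which begins 45 bases before the start. The letters were searched on both strands, and 9.564% of 32851 windows held such a match. The match describes letters and was not measured as binding, and an effect of Cebpd on C3 was not tested.

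C3: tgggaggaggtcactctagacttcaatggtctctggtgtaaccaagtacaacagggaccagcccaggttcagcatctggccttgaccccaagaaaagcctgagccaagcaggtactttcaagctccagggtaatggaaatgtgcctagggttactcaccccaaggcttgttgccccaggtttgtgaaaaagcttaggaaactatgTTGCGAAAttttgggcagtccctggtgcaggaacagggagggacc

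A second C/EBP match, 242 bases before the start, was found in 1 of the 2 entries of C1s1. TTCNNNGAA, the letters bound by STAT factors, and the interferon-stimulated response element had no match in the 7 entries of the 6 matched genes, and 7.02% and 2.977% of the windows held them.

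Cfb and C3ar1 were near the lower limit of these libraries. Cfb had 0, 6 and 0 counts in C57BL/6J and 5, 2 and 14 in JR5558 at 4 weeks, and 0, 1 and 1 against 5, 2 and 1 at 8 weeks. The sums per group of 6, 21, 2 and 8 counts were too few to test with the others, and in a fit with no filter on low counts Cfb stood at 1.60 ± 1.27 (adjusted p = 0.650) and 1.69 ± 1.48 (adjusted p = 0.720). C3ar1 (ENSMUSG00000040552, chr6:122847138-122856161, GRCm38, minus strand) had 17, 5 and 8 counts in C57BL/6J and 8, 9 and 0 in JR5558 at 4 weeks, and 12, 31 and 4 against 9, 14 and 4 at 8 weeks. The groups overlapped, with log2 fold changes of -0.96 ± 0.88 (adjusted p = 0.623) and -0.97 ± 0.81 (adjusted p = 0.605). For both genes a difference between strains was not detectable at these counts. Those of Cfb may also depend on how reads in the exons shared with Gm20547 were counted, so depth alone cannot be named as the limit.

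**Figure D4:**
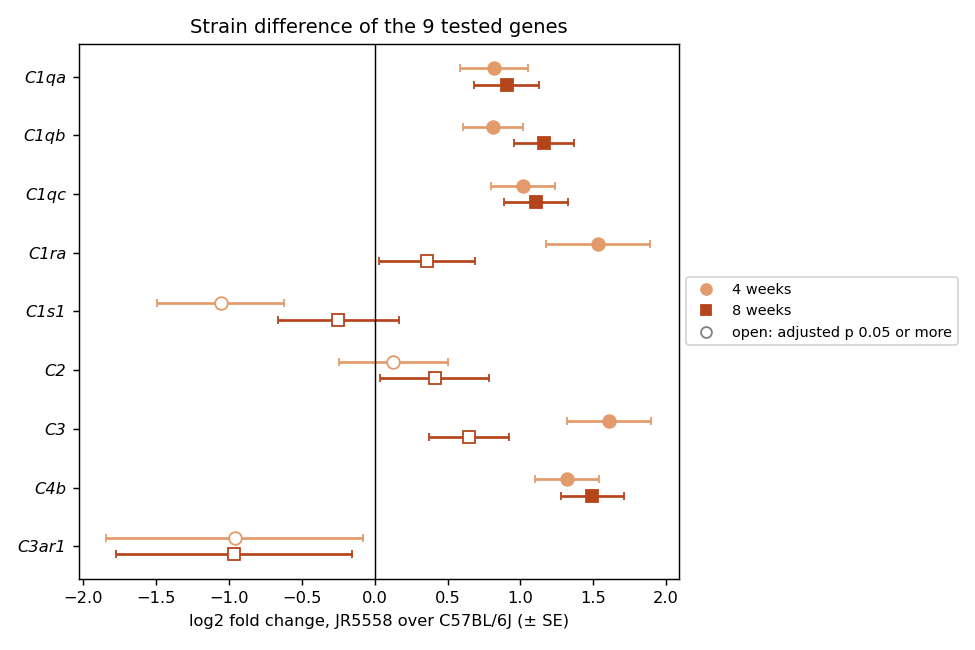
Log2 fold change of JR5558 over C57BL/6J (x axis) for the 9 tested genes (y axis) at 4 weeks (circles) and 8 weeks (squares), with bars of 1 standard error. Filled symbols passed an adjusted p of 0.05 by edgeR: 6 genes at 4 weeks and 4 at 8 weeks, each to the right of 0.

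The age comparisons asked whether the genes moved from 4 to 8 weeks within a strain. By edgeR 0 of the 9 were called in C57BL/6J, where 0.431% of tested genes were, and 0 of the 9 in JR5558, where 1.51% were. DESeq2 called 0 in both. In C57BL/6J 3 genes were separated upward, C1ra at 1.27 ± 0.36 (adjusted p = 0.135), C3 at 0.93 ± 0.30 (adjusted p = 0.165) and C4b at 0.51 ± 0.23 (adjusted p = 0.309), against 8.98% of tested genes. These 3 also had unadjusted p-values under 0.05 (0.00266, 0.00591 and 0.0367). In JR5558 2 genes were separated upward, C1qa at 0.54 ± 0.22 (adjusted p = 0.219) and C1s1 at 0.77 ± 0.44 (adjusted p = 0.390), against 12% of tested genes. C4b in JR5558 gave 0.69 ± 0.21 (adjusted p = 0.102), with unadjusted p-values under 0.05 for C4b, C1qb and C1qa (0.00395, 0.0180 and 0.0250). The share of all tested genes with an unadjusted p under 0.05 is not given here, so these counts have no background beside them and are not calls.

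The C4b age value in JR5558 ran from 0.48 (without JR5558 4-week replicate 2, adjusted p = 0.304) to 1.11 (without JR5558 4-week replicate 1, adjusted p = 0.00144) when 1 library was left out, and was called only in the latter of these 12 fits. With no filter on low counts, 2 genes were called in C57BL/6J, C3 at 0.92 (adjusted p = 0.0464) and C4b at 0.51 (adjusted p = 0.0173), and C4b was called in JR5558. The test of whether the strain effect differed between ages called 0 of the 9 genes, against 0.0927% of all tested genes. DESeq2 also called 0. By edgeR 2 genes, C1ra and C3, had unadjusted p-values under 0.05, again with no share of all genes to set beside them. The strain and age comparisons share libraries in pairs, so their values are not independent of each other.

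In the authors' deposited table, C4b (adjusted p = 7.6009e-06), C3 (0.000387) and C1qc (0.00689) were below 0.05 at 4 weeks, where 1.43% of the table's genes with an adjusted p were higher and below 0.05. In the authors' deposited table C1qb (0.0547), C1ra (0.0785) and C1qa (0.129) were not below 0.05 at that age. At 8 weeks C4b (3.39904e-29), C1qb (2.61799e-08), C1qc (4.25e-06) and C1qa (5.20e-06) were below 0.05 in the authors' deposited table, against 3.57% of genes, and C3 was at 0.0967. For age the authors' deposited table had 0 of the 10 genes below 0.05 in C57BL/6J and 0 in JR5558, against 0.569% and 3.75% of genes. A fit of the compared groups alone with edgeR called 3 genes at 4 weeks, C4b, C3 and C1qc, and 4 at 8 weeks.

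**Figure D5:**
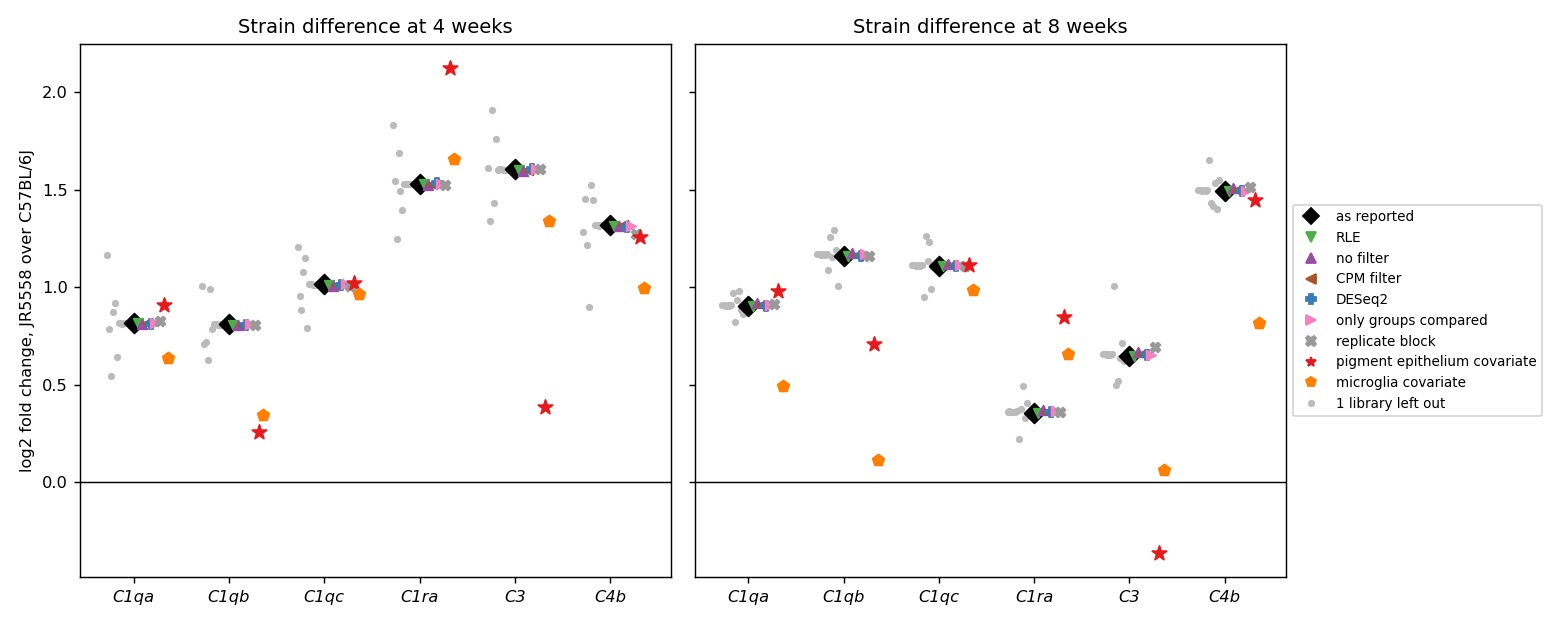
Log2 fold change of JR5558 over C57BL/6J (y axis) for the 6 genes called at 4 weeks (x axis), at 4 weeks on the left and 8 weeks on the right, under each way of fitting. Diamonds are the reported values, grey dots the fits without 1 library, stars the fit with the pigment epithelium covariate and pentagons that with the microglia covariate. C3 lies at 0.38 and -0.36 under the pigment epithelium covariate, and C1qb at 0.35 and 0.11 under the microglia covariate.

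Levels per length were compared as the mean FPKM over the 12 retinas. C1qb (8.26) and C1qa (7.94) were highest, followed by C4b (4.39), C1qc (3.96), C3 (0.825), C1ra (0.563), C1s1 (0.423), C2 (0.336), C3ar1 (0.118) and Cfb (0.0528). Several neighbours in this order changed places between retinas. C1qb was above C1qa in 5 of the 12 retinas and C4b above C1qc in 6. C1s1 was above C2 in 7 and C1ra above C1s1 in 8. These counts mix the groups, and the order was not tested. The ratio of C1ra to C1s1, for example, was 0.230 to 0.735 in C57BL/6J and 1.78 to 6.56 in JR5558 at 4 weeks. C1qa was above C4b, and C1qc above C3, in each of the 12 retinas. The share of C4b in the summed FPKM of the 10 genes was 12.7% ± 3.17 and 16.2% ± 5.07 in C57BL/6J and JR5558 at 4 weeks and 14% ± 2.33 and 19.1% ± 2.30 at 8 weeks.

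Of 48 other complement genes, listed by name as lectin pathway, alternative pathway, terminal, regulator and receptor genes, 25 were tested. At 4 weeks 3 were higher and 1 lower, with a median log2 fold change of 0.09, and at 8 weeks 2 were higher and 1 lower, with a median of -0.08. Masp2, a protease that cleaves C4 and C2 in the lectin pathway, rose by 2.71 ± 0.36 at 4 weeks (adjusted p = 5.93e-05) and 2.70 ± 0.37 at 8 weeks (adjusted p = 8.58e-05), from 5 to 21 counts in C57BL/6J libraries to 71 to 114 in JR5558 libraries. Clu, clusterin, which binds terminal complexes, rose by 0.40 ± 0.08 (adjusted p = 0.00308) and 0.36 ± 0.08 (adjusted p = 0.00712). Both Clu calls ended with the pigment epithelium covariate, at 0.20 ± 0.14 (adjusted p = 0.608) and 0.20 ± 0.12 (adjusted p = 0.550), and with the microglia covariate, at 0.31 ± 0.12 and 0.16 ± 0.22. The Masp2 call ended at 4 weeks with the pigment epithelium covariate (2.69 ± 0.72, adjusted p = 0.0994) and at 8 weeks with the microglia covariate (3.13 ± 0.90, adjusted p = 0.553).

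Cd59a, which blocks the membrane attack complex, fell by 1.86 ± 0.17 (adjusted p = 4.99e-07) and by 1.45 ± 0.16 (adjusted p = 9.03e-06) on the log2 scale. With the microglia covariate the 8-week call of Cd59a ended (-1.81 ± 0.47, adjusted p = 0.329). Of the 10 other receptor genes 5 were tested and 0 were called by edgeR in either strain comparison, with 2 at an unadjusted p under 0.05 at each age. Of the 7 terminal pathway genes 1 had enough counts and was not called. C6 and C7 of the terminal complex had 0 counts in the 12 libraries.

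Among 13 regulators and cytokines known to induce complement genes, 9 were tested and 2 were called, the same 2 at both ages. Cebpd rose by 1.5 ± 0.28 (adjusted p = 0.00188) and 1.94 ± 0.28 (adjusted p = 0.000139), and Stat3, the factor downstream of interleukin-6 type cytokines, by 0.52 ± 0.09 (adjusted p = 0.00154) and 0.50 ± 0.09 (adjusted p = 0.00284). With the pigment epithelium covariate these calls ended, with Cebpd at 1.31 ± 0.57 (adjusted p = 0.367) and 1.80 ± 0.47 (adjusted p = 0.0809) and Stat3 at 0.35 ± 0.18 (adjusted p = 0.451) and 0.36 ± 0.15 (adjusted p = 0.361). They also ended with the microglia covariate, with Cebpd at 1.06 ± 0.42 and 0.99 ± 0.73 and Stat3 at 0.45 ± 0.15 and 0.34 ± 0.27.

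Glial lists were read at the same time, because astrocytes and Müller glia can make C3 and C4. Of 12 genes listed by name for reactive glia 9 were higher at 4 weeks and 8 at 8 weeks, with 0 lower. They were led by Edn2 (2.94 ± 0.31 and 2.80 ± 0.29), Fgf2 (1.84 ± 0.21 and 1.90 ± 0.21) and A2m (2.18 ± 0.26 and 2.05 ± 0.26). Stat3 and Cebpd, the called inducers above, are also among the called genes of this list. Which cells made these RNAs was not measured, so the list is not a readout of glia alone. The filament gene Gfap rose by 0.86 ± 0.15 (adjusted p = 0.00138) and 0.56 ± 0.15 (adjusted p = 0.0403). Of 12 Müller glia markers 7 were higher at 4 weeks and 3 at 8 weeks, with Crym at 1.07 ± 0.11 and Rlbp1, the retinaldehyde carrier of Müller glia and pigment epithelium, at 0.72 ± 0.08 and 0.61 ± 0.08. Of 8 tested fibroblast and 5 blood cell genes, 0 were called between strains by edgeR, with 3 and 0 at an unadjusted p under 0.05 at 4 weeks and 1 and 0 at 8 weeks. Of 9 endothelial markers 1, Cldn5, was lower at 8 weeks (-0.65 ± 0.14). The contribution of these cells to the C3 and C4b values was not tested.

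The genes whose log2 CPM followed a member most closely over the 12 retinas were sought among 13440 genes of at least 1 CPM, by the root mean square difference of the centred values. The 4 closest to C3 were Cpxm2, Slc16a8, Stra6 and Sros1, with differences of 0.218 to 0.300, against an SD of C3 of 0.738. Slc16a8, a lactate transporter, and Stra6, the receptor of retinol-binding protein, are genes of the pigment epithelium. The 5 closest to C4b were Pcolce, Antxr2, Ptgds, Serpina3n and Jak3, at 0.261 to 0.313 against an SD of 0.809. Serpina3n, an acute-phase protease inhibitor, rose by 1.68 ± 0.26 and 1.28 ± 0.24, and Pcolce, an enhancer of procollagen processing, by 1.72 and 1.56. The 5 closest to the mean of the C1q chains were H2-D1, a class I chain (0.144), Ctss, a lysosomal protease of phagocytes (0.187), Nudt9, Mpst and Junb, up to 0.221 against an SD of 0.561. These distances describe 12 libraries that share the strain difference, and they carry no test.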

How the data were processed

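Poly-A RNA of 12 retinas, 4 groups of 3 mice, was sequenced, and the labels give strain, age and replicate number. The submitters' processing notes name mm10 and the tools featureCounts 1.5.0-p3, HISAT2 2.0.5 and fastp, run by the authors. Per the file headers the deposited table holds raw counts per gene and library and the authors' FPKM, whose method is not stated. It also holds the authors' normalised group means (not used here), gene lengths, and the authors' comparisons (p-values, raw and adjusted, and log2 fold changes), whose test is not stated. The table held 0 further columns of per-sample values. Deposited gene positions equal the GENCODE M21 positions for 0 of the 10 genes, so positions are given from GENCODE M21 (GRCm38). The 10 genes were matched by symbol, and their exonic lengths equal the deposited ones.

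R 4.3.3 was used with DESeq2 1.42.0, edgeR 4.0.16, version 1.17.8 of data.table and limma 3.58.1, and Python 3.11.15 with pandas 2.3.3 and Biopython 1.88. Genes passing filterByExpr (minimum count 10, minimum total 15), 18334 in all, were scaled by TMM and fitted with edgeR's quasi-likelihood model, with 1 mean per group over the 12 libraries. Tests were 2-sided with Benjamini-Hochberg adjustment over the 18334 genes and a threshold of 0.05. Counts at an unadjusted p under 0.05 are from the same edgeR fit and qualify values that were not called. The share of all tested genes at that unadjusted threshold is not given here. Log2 CPM used a prior count of 2. The pipeline was tested on simulated data.

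The members and lists were chosen with earlier results of these data known. Named are the 10 genes, other complement genes past the threshold between strains (up to 4 per list) with the copies C4a, C1rb and C1s2, up to 4 inducers, up to 3 called markers per list with Tmem119, P2ry12, Cx3cr1, Rpe65, Rlbp1 and Gfap, and the 5 genes nearest to C3, C4b and the C1q mean. C6, C7, Cd3e, Lpl, Spp1, Xist, Ddx3y, and the overlapping gene models were named in addition, after their values were seen. Alternatives were RLE scaling, no filter, at least 1 CPM in 3 libraries, DESeq2, a replicate block, leaving out each library, fitting only the compared groups, and a pigment epithelium covariate. A microglia covariate was added after the data were seen. Some genes that the rule names are not reported here. Samples with the same number did not deviate together.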

Additional observations from a re-analysis of the deposited data

How the results depend on the processing

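RLE scaling, a filter of at least 1 CPM in 3 libraries and DESeq2 kept the number of the 9 genes called higher, 6 at 4 weeks and 4 at 8 weeks. With only the groups compared it was 3 at 4 weeks, where 558 of 17407 tested genes were called against 1130 of 18334. At 8 weeks it was 4, where 2183 of 17459 were called against 949 of 18334. With the pigment epithelium covariate it was 0 at both ages, where 188 and 240 of all 18334 tested genes were called. With the microglia covariate, chosen after the data were seen, it was 0 at both ages, where 248 and 41 of all tested genes were called. The cause was not tested. Without 1 library the number of the 9 genes called ran from 3 (without C57BL/6J 4-week replicate 3) to 6 at 4 weeks, and from 3 to 4 at 8 weeks. With no filter on low counts, 2 genes rose with age in C57BL/6J and 1 in JR5558, where 0 were called with it. Over all genes, 445 were then called with age against 79 in C57BL/6J and 854 against 277 in JR5558, with 31728 genes tested against 18334. DESeq2 called 407 of 13357 genes with an adjusted p in C57BL/6J and 746 of 14068 in JR5558. With only the groups compared, 22 of 17239 and 544 of 17490 were called. The change of the strain effect called 96 of 31728 with no filter and 63 of 14424 with DESeq2, against 17 of 18334. Without 1 library, 0 to 1 of the 9 genes rose with age in JR5558.

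The replicate numbers did not pair the samples: correlations of the deviations of same-numbered samples were -0.114 to 0.0867 over 18 pairs, 0 of them over 0.1. With the number as a replicate block, 5 genes were called higher at 4 weeks and 4 at 8 weeks, C1qa at 4 weeks losing its call (adjusted p = 0.0624). In that fit C3 with age in JR5558 stood at 0.0047 and the change of the C3ar1 strain effect at 0.44.

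Values that were not called changed sign under some settings, and the cause was not tested. The pigment epithelium covariate gave C3 -0.36 at 8 weeks and 0.053 with age in JR5558, and C3ar1 0.070 for the change of the strain effect, which was 0.012 with no filter on low counts. The microglia covariate gave C3ar1 0.44 at 4 weeks and 2.30 at 8 weeks, and C1s1 0.11 at 8 weeks. Without 1 library, strain values ran from -0.072 to 0.36 for C2 at 4 weeks, and at 8 weeks from -0.50 to 0.093 for C1s1 and from -1.41 to 0.093 for C3ar1. Age values in C57BL/6J ran from -0.011 to 0.34 for C1qc, -0.38 to 0.21 for C1s1, -0.29 to 0.10 for C2 and -0.42 to 1.33 for C3ar1, and in JR5558 from -0.060 to 0.23 for C1ra, -0.073 to 0.35 for C2 and -0.18 to 0.15 for C3. The change of the strain effect ran from -0.25 to 0.36 for C1qa, -0.095 to 0.32 for C1qc, -0.033 to 0.60 for C4b and -0.69 to 1.06 for C3ar1. Low counts limit Cfb (0 to 14 counts per library) and C3ar1 (0 to 31), and those of Cfb may also depend on how reads shared with Gm20547 were counted.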
